A study of Mus musculus with 12 samples.

Results

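Genes with several transcription start sites near peaks of both Jmjd2a and Jmjd2c were examined, comparing where the peaks lay relative to each start of the same gene. The authors' deposited table of co-bound start sites holds 6940 windows of 2001 bp, each centred on a start, under 6418 gene entries. A gene was taken when its entry stood for 2 or more windows on the same chromosome. This gave 450 genes (7.01% of the entries) with 972 windows, of which 390 genes had 2 windows, 50 had 3, 8 had 4 and 2 had 5. The other 5968 genes had 1 window each. Of the 450 genes, 434 are protein coding, 13 encode long noncoding RNAs, 1 is a transcribed pseudogene and 2 were not matched in RefSeq.

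The study mapped where Jmjd2a and Jmjd2c, demethylases also called Kdm4a and Kdm4c, sit on chromatin, by chromatin immunoprecipitation and sequencing (ChIP-seq). The cells were leukaemic granulocyte-macrophage progenitors (L-GMP) from leukemic C57BL/6 mice, transformed with MLL-AF9 and grown in RPMI with 20% FBS and 10 ng/ml IL-3. All libraries, controls included, came from cells of the genotype Jmjd2a/b/c f/f;Rosa26::CreERT2. The Ctrl groups were untreated, and the OHT groups received 500 nM 4-hydroxytamoxifen for 96 h to induce the knockout through Cre. There are 12 libraries in 8 groups, with 1 Ctrl and 1 OHT library for each of Jmjd2a and Jmjd2c, and 2 of each for H3K9me3 and H3K36me3. The peak lists hold 8977 Jmjd2a peaks and 10521 Jmjd2c peaks, 1 list for each protein, without height, score or values per library. The sources used here do not say which libraries went into each list or how deep they were, so treated and untreated cells could not be compared and neither list has a replicate. Genes and starts are not replicates, and all intervals and p-values given here reflect counting error alone.

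Many mammalian genes have alternative promoters, each with its own start site, which can change the first exon of the transcript and at times the beginning of the protein. Jmjd2a and Jmjd2c are KDM4 enzymes, which demethylate H3K9 and H3K36, and their Tudor domains bind trimethylated lysine 4 of histone H3, a mark of active start sites. That mark is typically found at CpG islands, stretches rich in the CpG dinucleotide that overlap most promoters of widely expressed genes.

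The sequences below show pairs of starts of the same gene that differ in CpG content, in peak coverage or in both. Each run covers 150 bases before the start and 20 bases from the start on, 5′ to 3′ on the strand of the gene, from RefSeq promoters on GRCm38.p6, with each CpG pair in capitals. Cdkn2c was chosen for display after its values were seen. The other genes come from the rule for named genes given under the processing.

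Prkag2, which encodes a regulatory gamma subunit of the AMP-activated kinase, has starts 192133 bp apart (chr5:25100623-25100792 and chr5:24908490-24908659, minus strand), with 14 CpG pairs at the 5′-most start and 24 at the 3′-most. Both proteins covered both of them. Arhgef3 has starts 98027 bp apart (chr14:27237860-27238029 and chr14:27335887-27336056, plus strand), also under both proteins, with 3 and 11 CpG pairs.
Prkag2 5′-most start: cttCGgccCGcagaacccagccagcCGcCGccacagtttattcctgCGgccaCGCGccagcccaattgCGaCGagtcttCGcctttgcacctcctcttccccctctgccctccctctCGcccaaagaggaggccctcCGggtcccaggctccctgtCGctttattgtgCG
Prkag2 3′-most start: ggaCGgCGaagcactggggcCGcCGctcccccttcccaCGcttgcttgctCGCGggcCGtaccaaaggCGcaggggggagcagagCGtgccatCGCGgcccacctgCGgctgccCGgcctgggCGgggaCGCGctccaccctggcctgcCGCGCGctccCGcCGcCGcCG
Arhgef3 5′-most start: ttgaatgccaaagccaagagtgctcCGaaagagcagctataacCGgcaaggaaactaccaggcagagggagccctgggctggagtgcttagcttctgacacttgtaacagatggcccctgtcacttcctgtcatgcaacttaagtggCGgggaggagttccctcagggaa
Arhgef3 3′-most start: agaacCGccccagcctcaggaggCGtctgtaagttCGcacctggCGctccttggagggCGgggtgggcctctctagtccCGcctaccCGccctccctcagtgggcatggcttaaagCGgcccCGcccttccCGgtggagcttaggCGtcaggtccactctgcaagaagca

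Eaf2, which encodes a partner of the elongation factor ELL, has starts 46567 bp apart (chr16:36874807-36874976 and chr16:36828240-36828409, minus strand), with 8 and 18 CpG pairs. Jmjd2a covered the 3′-most start and not the 5′-most, and Jmjd2c covered both. Elmsan1, a gene for a protein of a histone deacetylase complex, has starts 24866 bp apart (chr12:84218862-84219031 and chr12:84193996-84194165, minus strand), with 28 and 18 CpG pairs, and both proteins covered the 5′-most start alone.
Eaf2 5′-most start: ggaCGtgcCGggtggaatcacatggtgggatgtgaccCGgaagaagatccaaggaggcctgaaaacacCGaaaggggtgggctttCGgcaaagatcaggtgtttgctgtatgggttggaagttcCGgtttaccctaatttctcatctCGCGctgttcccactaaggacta
Eaf2 3′-most start: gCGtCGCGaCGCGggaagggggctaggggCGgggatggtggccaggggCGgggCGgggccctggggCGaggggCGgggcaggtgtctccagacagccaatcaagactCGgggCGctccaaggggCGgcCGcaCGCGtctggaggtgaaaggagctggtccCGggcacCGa
Elmsan1 5′-most start: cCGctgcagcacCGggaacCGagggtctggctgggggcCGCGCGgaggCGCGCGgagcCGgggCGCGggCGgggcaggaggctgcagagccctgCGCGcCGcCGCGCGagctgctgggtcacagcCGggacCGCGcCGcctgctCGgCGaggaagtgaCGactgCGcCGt
Elmsan1 3′-most start: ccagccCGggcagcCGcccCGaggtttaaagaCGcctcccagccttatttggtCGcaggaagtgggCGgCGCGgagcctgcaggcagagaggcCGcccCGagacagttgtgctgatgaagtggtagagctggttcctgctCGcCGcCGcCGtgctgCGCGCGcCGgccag

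Satb1, which encodes a chromatin organiser of the lymphoid lineage, has 3 co-bound starts spanning 21236 bp (chr17:51833271-51833440, chr17:51832628-51832797 and chr17:51812035-51812204, minus strand) with 6, 21 and 5 CpG pairs. The middle start lay under both proteins, the 5′-most under Jmjd2a alone and the 3′-most under neither. Cdkn2c, which encodes an inhibitor of the cyclin-dependent kinases Cdk4 and Cdk6, has starts 1384 bp apart (chr4:109666737-109666906 and chr4:109665353-109665522, minus strand), with 24 and 3 CpG pairs. The Jmjd2c peak covered its 5′-most start and ended 51 bp before the 3′-most, while the Jmjd2a peak covered both.
Satb1 5′-most start: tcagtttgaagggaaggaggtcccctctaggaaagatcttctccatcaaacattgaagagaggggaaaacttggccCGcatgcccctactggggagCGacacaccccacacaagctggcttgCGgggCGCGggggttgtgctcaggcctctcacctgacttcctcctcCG
Satb1 middle start: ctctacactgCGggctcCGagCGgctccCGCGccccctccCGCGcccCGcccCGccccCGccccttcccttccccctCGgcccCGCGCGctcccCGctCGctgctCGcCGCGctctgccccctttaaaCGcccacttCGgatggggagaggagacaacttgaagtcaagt
Satb1 3′-most start: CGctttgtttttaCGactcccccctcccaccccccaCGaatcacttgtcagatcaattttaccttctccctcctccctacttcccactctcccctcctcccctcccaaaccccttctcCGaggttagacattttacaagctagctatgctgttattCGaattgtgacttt
Cdkn2c 5′-most start: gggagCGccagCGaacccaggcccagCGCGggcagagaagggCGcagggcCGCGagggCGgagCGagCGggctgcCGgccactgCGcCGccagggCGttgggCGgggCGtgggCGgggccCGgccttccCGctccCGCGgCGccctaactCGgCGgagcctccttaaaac
Cdkn2c 3′-most start: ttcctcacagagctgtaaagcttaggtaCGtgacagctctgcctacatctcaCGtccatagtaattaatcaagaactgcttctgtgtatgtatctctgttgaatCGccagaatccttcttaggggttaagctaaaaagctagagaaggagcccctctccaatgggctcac

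Most of these starts lay close together. The distance between the outermost co-bound starts of a gene had a median of 357 bp (interquartile range 114 to 765, range 1 to 342033 bp). In 416 genes it was at most 2000 bp, so that the outermost windows overlap each other (largest 1952 bp), and in 34 genes it was larger (smallest 2015 bp). Among these 34 genes, 23 had starts over 10000 bp apart, 11 over 50000 bp and 5 over 100000 bp. In every gene all starts were on a single strand, and the genes lay on 20 chromosomes.

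A window is in the table because both proteins have a peak in it, so a peak near each start is given by the choice of genes. Whether a peak covers the start itself is not fixed by it, but a start can be in the table through a peak over a neighbouring start. Across all 6940 windows a Jmjd2a peak lay over the start in 67.2% and a Jmjd2c peak in 94.1%. Of the 972 starts of genes with several, Jmjd2a covered 589 (60.6%) and Jmjd2c 874 (89.9%). Both proteins covered 573 starts (59.0%, exact Clopper-Pearson 95% interval 55.8 to 62.1), Jmjd2c alone 301 (31.0%, 28.1 to 34), Jmjd2a alone 16 (1.65%, 0.944 to 2.66) and neither 82 (8.44%, 6.77 to 10.4). At the starts of genes with 1 window the same shares were 66.7% (65.5 to 67.9), 28.0% (26.9 to 29.2), 1.51% (1.21 to 1.85) and 3.70% (3.24 to 4.21). Jmjd2c alone and Jmjd2a alone were thus about as frequent in both sets. The intervals over the 972 starts count starts of the same gene as separate, although most share a peak, and are therefore too narrow.

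Most neighbouring starts had the same peak in their windows, and how far a peak reached differed between the proteins. One and the same Jmjd2a peak lay in 2 or more windows of the gene in 424 of 450 genes (94.2%, 91.6 to 96.2), and a Jmjd2c peak did so in 425 (94.4%, 91.9 to 96.4). Windows of near starts overlap, so this share follows in part from the distances. With the wider 50% of each peak list alone the shares were 57.1% and 64.0%.

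A stricter measure was a single peak over both outermost starts themselves. For Jmjd2a this was found in 66 of 106 genes with starts up to 100 bp apart (62.3%), in 93 of 173 with starts 101 to 500 bp apart (53.8%) and in 24 of 92 at 501 to 1000 bp (26.1%). It was found in 1 of 45 genes at 1001 to 2000 bp (2.22%). The same measure for Jmjd2c gave 94.3%, 90.2%, 75% and 28.9% in these classes. Neither protein had a single peak over both outermost starts in any of the 34 genes beyond 2000 bp (0 of 34, interval up to 10.3%). The widest peaks in the windows of these genes were 4514 bp for Jmjd2c and 2378 bp for Jmjd2a. Beyond such distances a single peak could not cover both starts, and the interval does not account for this. Jmjd2c peaks are the wider ones, with a median of 1302 bp over the whole list against 706 bp for Jmjd2a. The widest peak of each gene with several starts had a median of 1601.5 bp for Jmjd2c and 814.5 bp for Jmjd2a, against 1456 and 827 bp in genes with 1 start.

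**Figure D1:**
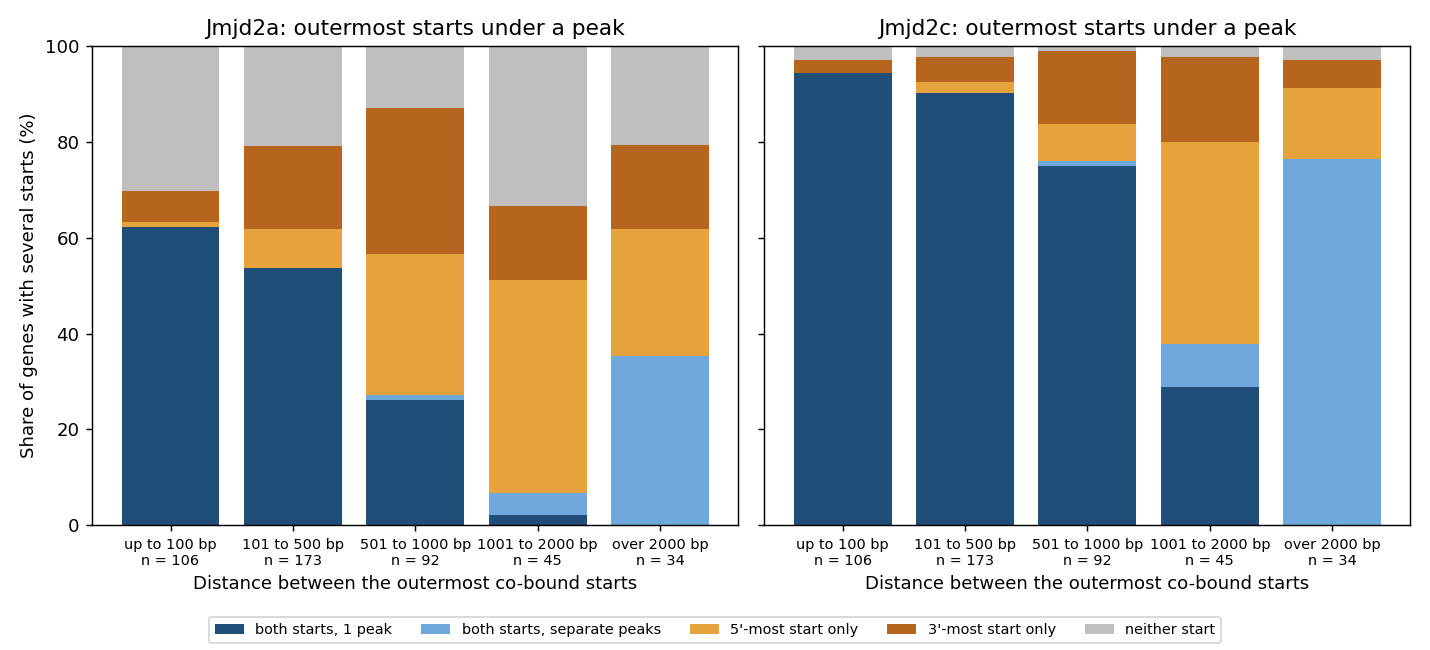
Share of genes with several co-bound starts (percent, y axis) by which of their outermost starts lay under a peak, in classes of distance between these starts (x axis, n genes below each bar), for Jmjd2a (left) and Jmjd2c (right). The dark blue part, a single peak over both starts, falls from 62.3% to 2.22% for Jmjd2a and from 94.3% to 28.9% for Jmjd2c between the first and the fourth class and is absent in the last.

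Where a peak covered a single start, which of the starts it was varied with the distance. At 101 to 500 bp, Jmjd2a covered the 5′-most start alone in 14 genes and the 3′-most alone in 30. At 501 to 1000 bp these counts were 27 and 28, and at 1001 to 2000 bp they were 20 and 7. The Jmjd2c counts in the same 3 classes were 4 and 9, 7 and 14, and 19 and 8. The classes and this order were not tested against each other.

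Followed along the gene, Jmjd2a coverage in the 101 to 500 bp class was 61.8% of 173 genes at the 5′-most start, 75.1% midway between the starts and 71.1% at the 3′-most start. In the 1001 to 2000 bp class it was 51.1% of 45 genes at the 5′-most start (interval 35.8 to 66.3), 64.4% at 25% of the way to the 3′-most start and 22.2% at the 3′-most start (11.2 to 37.1). Jmjd2c coverage in that class was 80.0% at the 5′-most start (65.4 to 90.4), 80.0% midway and 55.6% at the 3′-most (40 to 70.4). Of the places examined, Jmjd2a peaks were thus found most often midway in the 101 to 500 bp class. In the 1001 to 2000 bp class this place was 25% of the way to the 3′-most start. The other 2 classes differed. With starts up to 100 bp apart the highest share was 72.6%, 250 bp after the 3′-most start. At 501 to 1000 bp it was 70.7%, at 25% of the way and midway alike.

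**Figure D2:**
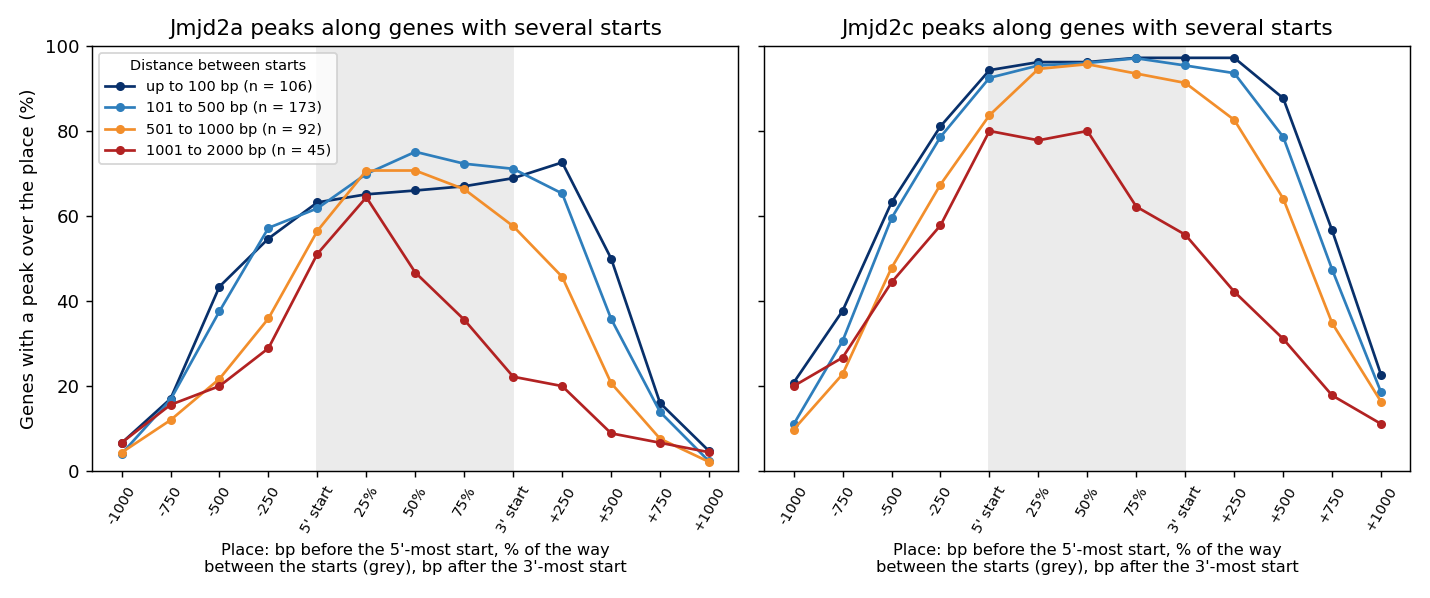
Percent of genes with a peak over each place (y axis) along genes with several co-bound starts, for Jmjd2a (left) and Jmjd2c (right). The x axis runs from 1000 bp before the 5′-most start to 1000 bp after the 3′-most start, with the stretch between the starts (grey) scaled to the same width in every gene, and lines stand for classes of distance. The line for starts 1001 to 2000 bp apart is lower at the 3′-most start (22.2% and 55.6%) than at the 5′-most (51.1% and 80.0%).

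The first comparison asked whether the 5′-most start of a gene with several co-bound starts was covered as often as the start of a gene with 1. It was covered less often, for both proteins. Jmjd2a covered the 5′-most start in 270 of 450 genes (60%, 55.3 to 64.6) against 4073 of 5968 (68.2%, 67.0 to 69.4), with 67.7% over all genes. The odds ratio was 0.698 (two-sided Fisher's exact test, p = 0.000375, 0.000751 after Benjamini-Hochberg adjustment over 4 tests). Jmjd2c covered it in 404 of 450 genes (89.8%, 86.6 to 92.4) against 5657 of 5968 (94.8%, 94.2 to 95.3), with 94.4% over all genes and an odds ratio of 0.483 (p = 4.08e-05, adjusted exact p = 0.000163). The choice of genes bears on this comparison. A gene can have several windows because 1 peak reaches into all of them, and its 5′-most start then lies at the edge of the group. The p-values cannot separate a trait of these genes from this choice, and how much of the difference comes from it was not tested. From the closest class of distance to the widest, Jmjd2c covered the 5′-most start in 94.3%, 92.5%, 83.7%, 80.0% and 91.2% of genes. For Jmjd2a these shares were 63.2%, 61.8%, 56.5%, 51.1% and 61.8%. The result also depends on which start stands for the gene. Counting any start as enough, Jmjd2a covered at least 1 start in 354 genes (78.7%) and Jmjd2c in 441 (98.0%), both above genes with 1 start, where by construction a gene has fewer chances to be counted. All co-bound starts of the gene were covered in 199 genes by Jmjd2a (44.2%) and in 368 by Jmjd2c (81.8%). With the wider 50% of peaks, the shares were 48.0% against 51.8% for Jmjd2a (adjusted exact p = 0.518) and 62.4% against 62.2% for Jmjd2c (adjusted exact p = 0.96). Another co-bound start on the opposite strand lay within 1000 bp of a start in 121 of the 450 genes (26.9%, 22.8 to 31.2) and in 1395 of the 5968 (23.4%, 22.3 to 24.5).

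In the 34 genes with starts over 2000 bp apart the outermost windows do not overlap, and the outermost starts could be compared within the gene. In 8 of them, further starts lay at most 2000 bp from a neighbouring one. Separate Jmjd2c peaks covered both outermost starts in 26 of 34 genes (76.5%, 58.8 to 89.3), and separate Jmjd2a peaks did so in 12 (35.3%, 19.7 to 53.5). Of all 78 co-bound starts of these genes, Jmjd2c covered 85.9% and Jmjd2a 57.7%, against 94.1% and 67.2% over all windows. The 5′-most start lay under Jmjd2a in 21 genes and the 3′-most in 18, with 9 genes covered at the 5′-most start only and 6 at the 3′-most only (two-sided exact McNemar test, p = 0.607, adjusted 0.607). For Jmjd2c the numbers were 31 and 28, with 5 and 2 genes covered at a single end (exact p = 0.453, adjusted 0.604). Neither difference passed the test, which with these few discordant genes does not show that the ends are alike. Counting a peak within 200 bp of the start turned the Jmjd2a order to 27 against 29 genes (adjusted exact p = 0.688). Peaks between distant starts were also looked for, without a comparison with other stretches of the genome. Where starts lie just over 2000 bp apart, little sequence is left outside the windows. In 32 of the 34 genes no peak of either protein lay between the outermost starts outside the windows. The 2 exceptions were a Jmjd2a peak of 658 bp in Asap1 (chr15:64339302-64339959, mm10) and a Jmjd2c peak of 1097 bp in Sin3a (chr9:57073780-57074876, mm10).

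**Figure D3:**
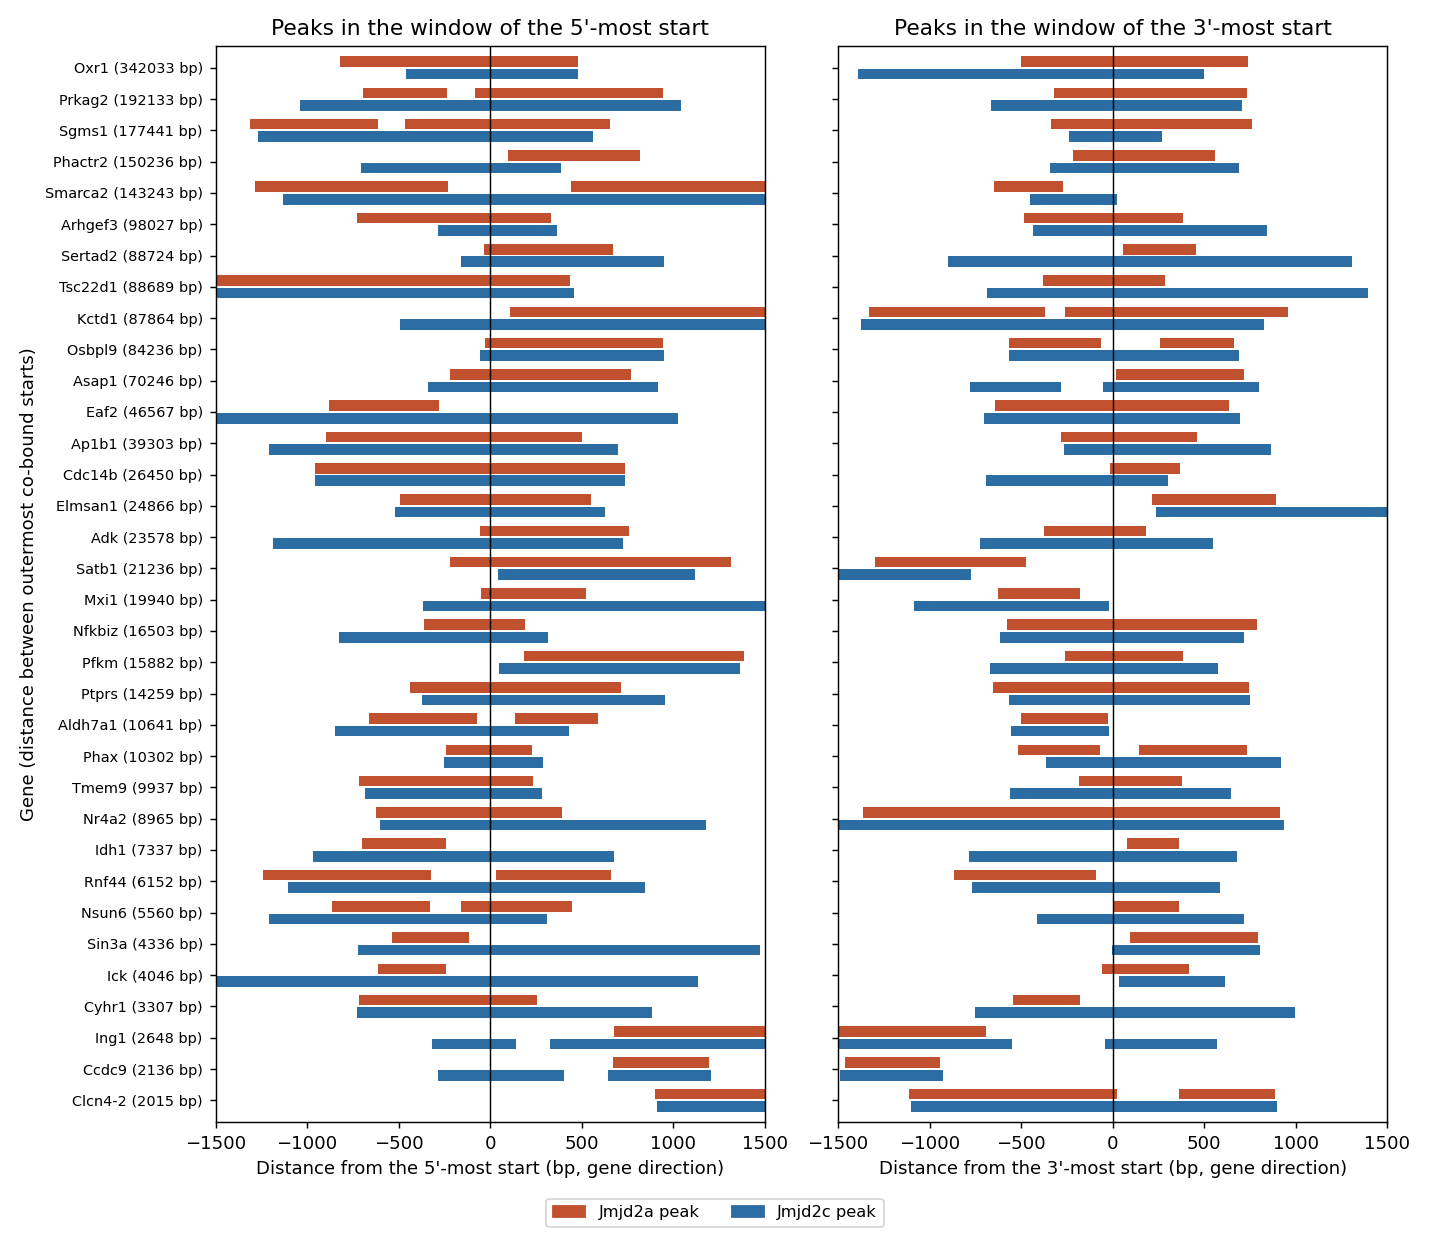
Peaks in the windows of the 5′-most (left) and the 3′-most start (right) of the genes with co-bound starts over 2000 bp apart, ordered by that distance (in parentheses, bp). The x axis is the distance from the start in the direction of the gene (bp, 0 at the start), bars span each peak from edge to edge and continue beyond the frame where they reach it, and Jmjd2a is drawn above Jmjd2c. In 12 genes, Oxr1, Prkag2 and Sgms1 among them, bars of both proteins cross 0 on both sides.

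Both proteins covered every co-bound start in 12 of the 34 genes. These were Nr4a2, Tmem9, Ptprs, Nfkbiz, Adk, Cdc14b, Ap1b1, Tsc22d1, Arhgef3, Sgms1, Prkag2 and Oxr1, named here as the whole class. Oxr1, a gene that protects cells from oxidative damage, had the largest distance of all, 342033 bp on the plus strand of chromosome 15. Its 5′-most start (41447482, mm10) lay under a Jmjd2a peak of 1297 bp and a Jmjd2c peak of 939 bp. Its middle and 3′-most starts (41789034 and 41789515) lay 481 bp apart under a single Jmjd2a peak of 1237 bp and a single Jmjd2c peak of 1888 bp.

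At Prkag2 the 5′-most start (chromosome 5, 25100642) had Jmjd2a and Jmjd2c peaks of 1025 and 2077 bp over it, with a further Jmjd2a peak of 458 bp ending 235 bp upstream. The 3′-most start (24908509) had peaks of 1054 and 1375 bp. The peak widths were thus of the same order at both promoters shown above. Sgms1, which encodes a sphingomyelin synthase, had starts 177441 bp apart (chromosome 19, 32388454 and 32211013, minus strand). Jmjd2a peaks of 1118 and 1100 bp covered its starts, and the Jmjd2c peaks over them were 1829 bp at the 5′-most and 505 bp at the 3′-most. At Arhgef3 the 5′-most start (chromosome 14, 27238010), the one with few CpG pairs, lay under peaks of 1059 bp (Jmjd2a) and 653 bp (Jmjd2c), and the 3′-most (27336037) under peaks of 868 and 1278 bp. Here the wider peak at the 5′-most start was that of Jmjd2a, and at the 3′-most that of Jmjd2c.

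Nr4a2, which encodes an orphan nuclear receptor, had starts 8965 bp apart (chromosome 2, 57124003 and 57115038, minus strand). Its peaks were 1014 bp (Jmjd2a) and 1780 bp (Jmjd2c) at the 5′-most start, and 2275 and 3372 bp at the 3′-most. Both proteins had the wider peak at the 3′-most start of this gene. Among the others of the class, starts lay 14259 bp apart in Ptprs, a receptor tyrosine phosphatase gene, 16503 bp in Nfkbiz, which encodes an atypical nuclear inhibitor of NF-κB, and 23578 bp in the adenosine kinase gene Adk. The distance was 39303 bp in Ap1b1, which encodes a subunit of a clathrin adaptor, and 88689 bp in Tsc22d1, a leucine zipper protein gene.

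Jmjd2a covered the 5′-most of the outermost starts alone in 9 genes (Cyhr1, Nsun6, Phax, Mxi1, Satb1, Elmsan1, Asap1, Osbpl9 and Sertad2). At Elmsan1 peaks of 1040 bp (Jmjd2a) and 1145 bp (Jmjd2c) covered the 5′-most start (chromosome 12, 84218881). At the 3′-most start (84194015) the Jmjd2a peak began 214 bp and the Jmjd2c peak 238 bp downstream. The 3′-most start, which has fewer CpG pairs in the runs shown above, thus lay outside the peaks of both proteins. At Satb1 a Jmjd2a peak of 1531 bp covered the 5′-most and the middle start (chromosome 17, 51833290 and 51832647), which lie 643 bp apart. The Jmjd2c peak of 1077 bp covered the middle start, the one rich in CpG pairs, and began 41 bp downstream of the 5′-most. Near the 3′-most start (51812054) the peaks ended 477 bp (Jmjd2a, 822 bp wide) and 773 bp (Jmjd2c, 1188 bp wide) upstream.

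Asap1, which encodes an Arf GTPase-activating protein, had starts 70246 bp apart (chromosome 15, 64382919 and 64312673, minus strand). Its 5′-most start lay under peaks of 987 bp (Jmjd2a) and 1255 bp (Jmjd2c). At the 3′-most start the Jmjd2a peak of 696 bp began 19 bp downstream, and a Jmjd2c peak of 852 bp covered the start. A gap of this size is small beside the peak, and the call of the start rests on the peak's edge. Mxi1, which encodes an antagonist of Myc, had the widest Jmjd2c peak of these genes, 4514 bp, over its 5′-most start (chromosome 19, 53310506), beside a Jmjd2a peak of 569 bp. Of its other starts, 18907 and 19940 bp further on, the Jmjd2c peak of 1065 bp covered the first and ended 20 bp short of the second, while the Jmjd2a peak of 446 bp lay between them over neither.

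Jmjd2a covered the 3′-most of the outermost starts alone in 6 genes (Clcn4-2, Ick, Pfkm, Eaf2, Kctd1 and Phactr2). At Eaf2 a Jmjd2a peak of 601 bp ended 279 bp upstream of the 5′-most start (chromosome 16, 36874826), which lay under a Jmjd2c peak of 2635 bp. The 3′-most start (36828259) lay under peaks of 1274 bp (Jmjd2a) and 1398 bp (Jmjd2c). The start that Jmjd2a covered is the one with more CpG pairs, and Jmjd2c had its wider peak at the other. Phactr2, a gene for a regulator of phosphatase and actin, had starts 150236 bp apart (chromosome 10, 13474396 and 13324160, minus strand). The Jmjd2a peak of 725 bp began 95 bp downstream of the 5′-most start and another of 775 bp covered the 3′-most, and Jmjd2c peaks of 1095 and 1029 bp covered both. Kctd1, which encodes a BTB domain protein, had starts 87864 bp apart on chromosome 18. A Jmjd2a peak of 1564 bp began 106 bp downstream of the 5′-most of these and one of 1218 bp covered the 3′-most, again with Jmjd2c over both (2389 and 2203 bp).

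In the other 7 genes Jmjd2a covered neither outermost start (Ccdc9, Ing1, Sin3a, Rnf44, Idh1, Aldh7a1 and Smarca2). Smarca2, which encodes an ATPase of the SWI/SNF chromatin remodelling complexes, had starts 143243 bp apart (chromosome 19, 26605160 and 26748403, plus strand). Jmjd2a peaks of 1050 and 2225 bp lay on either side of the 5′-most start, ending 234 bp upstream and beginning 442 bp downstream, while a Jmjd2c peak of 4087 bp ran across it. At the 3′-most start a Jmjd2a peak of 378 bp ended 274 bp upstream and a Jmjd2c peak of 474 bp covered the start. In this gene both starts were thus under Jmjd2c and beside Jmjd2a. Sin3a, a scaffold of a corepressor complex with histone deacetylases, showed the same arrangement. Its 5′-most start lay 114 bp from a Jmjd2a peak of 425 bp and its 3′-most start 94 bp from one of 698 bp, and Jmjd2c peaks of 2195 and 806 bp covered both. Idh1, which encodes cytosolic isocitrate dehydrogenase, had Jmjd2a peaks of 456 and 284 bp at 245 and 76 bp from its starts, with Jmjd2c peaks of 1642 and 1464 bp over them. Aldh7a1 and Phax are transcribed in opposite directions and share the peaks of their windows, so that they are not separate cases. In all, 12 of the 450 genes share a peak with another gene with several starts.

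In 3 of the 34 genes (8.82%, 1.86 to 23.7) a single peak of each protein reached into both outermost windows. They are Clcn4-2, Ccdc9 and Ing1, whose starts lay 2015, 2136 and 2648 bp apart. Among genes with starts at least 5000 bp apart there was none (0 of 28, interval up to 12.3%), which also follows in large part from peak width. At the chloride-proton exchanger gene Clcn4-2 a Jmjd2a peak of 1140 bp and a Jmjd2c peak of 2002 bp covered the middle and the 3′-most start and began 900 and 911 bp downstream of the 5′-most. At Ccdc9 a Jmjd2a peak of 521 bp and a Jmjd2c peak of 563 bp lay between the starts over neither, and a second Jmjd2c peak of 689 bp covered the 5′-most start.

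In the 10 genes with 4 or 5 co-bound starts, Jmjd2c covered every start in 7 and Jmjd2a in 2 (Pigp and Stard6, where both proteins covered all 4). Jmjd2c covered more starts than Jmjd2a in 8 of the 10 and as many in these 2. Over all 6940 windows Jmjd2c covered 94.1% of starts and Jmjd2a 67.2%, so this order is not particular to these genes. Both genes with 5 starts are described here, and of the 8 with 4 the first by name, Ak4 and Atp5j. Ing1, which encodes a reader of trimethylated lysine 4 of histone H3, had 5 starts on chromosome 8 from 11555762 to 11558410. Its Jmjd2a peak of 1278 bp covered the fourth start alone (11556457). Its 3 Jmjd2c peaks, 459, 1774 and 607 bp wide, covered the first, the fourth and the last, and the others lay 23 and 21 bp outside. Ppt2, a palmitoyl-protein thioesterase gene, had 5 starts over 1131 bp of chromosome 17. A Jmjd2a peak of 625 bp covered the 3′-most of them alone, and a Jmjd2c peak of 749 bp covered the 3 nearest the 3′ end. Ak4, a mitochondrial adenylate kinase gene, had 4 starts over 414 bp, all under a Jmjd2c peak of 2076 bp, while a Jmjd2a peak of 597 bp covered the first 3. Atp5j, which encodes a subunit of the mitochondrial ATP synthase, had 4 starts over 627 bp under a Jmjd2c peak of 2361 bp. Its Jmjd2a peak of 349 bp covered the 5′-most start and ended 373 bp or more before the others.

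The gene lists were read for members with several co-bound starts, without a test. Over all entries the share with several starts was 7.01%. Among co-bound enzymes and readers of histone and DNA methylation it was 5 of 36 (13.9%). Dnmt3a and Dnmt1, the DNA methyltransferase genes of this list, had starts 180 and 356 bp apart that all lay under 1 Jmjd2a peak (1502 and 789 bp) and 1 Jmjd2c peak (1615 and 1450 bp). Kdm3a, a lysine 9 demethylase gene, had starts 231 bp apart, both under a Jmjd2c peak of 1975 bp, and Jmjd2a (796 bp) began 44 bp downstream of the 5′-most and covered the other. Suv39h1, a lysine 9 methyltransferase gene, had starts 447 bp apart. Its Jmjd2a peak of 388 bp lay 104 bp or more upstream of both and its Jmjd2c peak of 1089 bp covered the 3′-most alone. Ing1, described above, was the only list member with starts over 2000 bp apart.

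Of the co-bound cell cycle and apoptosis genes, 5 of 27 had several starts (18.5%). Ccne2, which encodes cyclin E2, had starts 358 bp apart under peaks of 2400 bp (Jmjd2a) and 2350 bp (Jmjd2c). E2f1, a cell cycle transcription factor gene, had starts 466 bp apart, both under a Jmjd2a peak of 808 bp and a Jmjd2c peak of 2287 bp. At Bcl2l1, which encodes the survival protein Bcl-xL, the starts lay 1011 bp apart, and a Jmjd2a peak of 347 bp covered the 5′-most while a Jmjd2c peak of 1778 bp covered both. At Bcl2l11, which encodes the pro-apoptotic protein Bim, they lay 1537 bp apart. There Jmjd2a (1637 bp) ended 361 bp before the 3′-most start, and Jmjd2c (2963 bp) covered both. At Cdkn2c the order of the proteins was the other way round. Its Jmjd2a peak of 1844 bp covered both starts, and its Jmjd2c peak of 2157 bp the 5′-most alone.

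Transcription factors and regulators of blood progenitors gave 3 of 22 co-bound genes (13.6%). Tcf12 had starts 618 bp apart, both under a Jmjd2a peak of 1464 bp and a Jmjd2c peak of 2369 bp. Irf1, an interferon response factor gene, had starts 459 bp apart, and peaks of 608 bp (Jmjd2a) and 733 bp (Jmjd2c) covered the 3′-most alone, beginning 105 and 53 bp downstream of the 5′-most. Tcf4 had starts 1229 bp apart, each with a Jmjd2c peak of its own (1014 and 1601 bp), and was the only gene with starts at most 2000 bp apart in which no Jmjd2a peak reached into both windows. Cytokine receptor, RAS and PI3K signalling gave 2 of 35 (5.71%). Of these, Kit, the stem cell factor receptor gene, had starts 4 bp apart and the adaptor gene Gab1 had starts 40 bp apart, and both proteins covered all of them. RNA splicing and processing gave 1 of 23 (4.35%). This was the RNA helicase gene Ddx17, with starts 182 bp apart and Jmjd2c (1162 bp) over the 3′-most alone.

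The promoter sequences were then compared with the peaks. A RefSeq promoter of 300 bases, 250 before the start and 50 from it on, matched 691 of the 972 starts exactly, 52 of the 78 starts in genes with distant starts and 4509 of all 6940 windows. The median number of CpG pairs per promoter was 23 (interquartile range 16 to 31) at starts of genes with several, 24 at starts of genes with 1 and 7 over all 32817 promoters. At starts of genes with several, it was 24 under Jmjd2c (n = 623) and 11 outside its peaks (interquartile range 5.75 to 20, n = 68). In genes with 1 start the same medians were 24 (n = 3644) and 19.5 (n = 174). For Jmjd2a they were 24 and 21 in genes with several starts and 24 and 23.5 in genes with 1. Base composition also affects amplification and mapping of reads, and its part in these values was not tested.

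**Figure D4:**
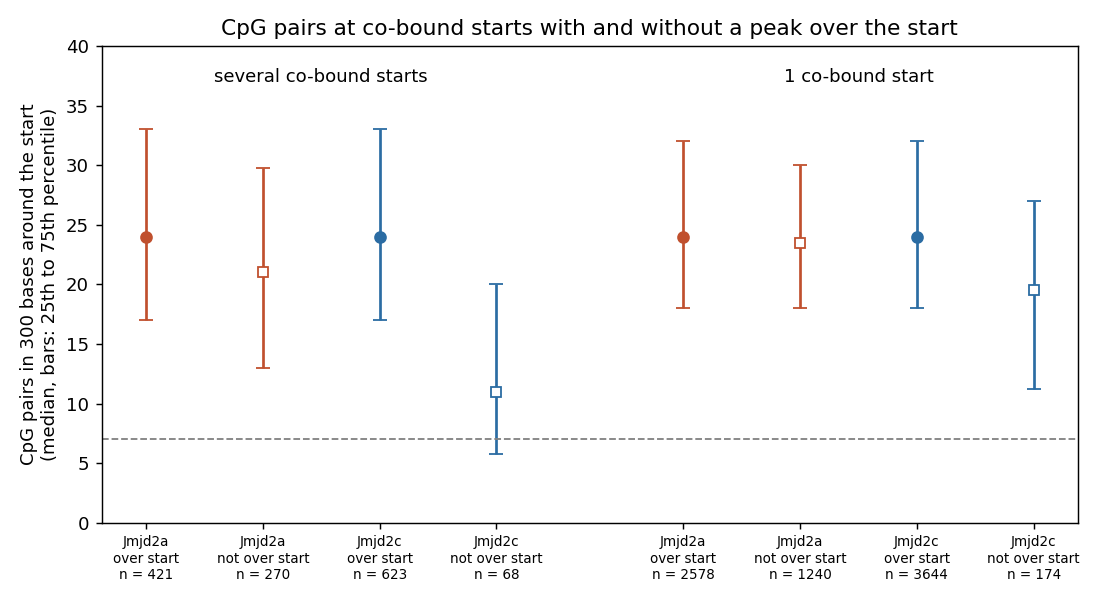
Number of CpG pairs in the 300 bases around a co-bound start (y axis, points are medians, bars run from the 25th to the 75th percentile) at starts with a peak over them (filled circles) and without (open squares), for Jmjd2a (red) and Jmjd2c (blue), in genes with several co-bound starts (left) and with 1 (right). The dashed line is the median of all RefSeq promoters, 7, and the lowest group, with a median of 11, is starts of genes with several that lay outside Jmjd2c peaks.

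In the genes examined with Jmjd2c over a single outermost start, that start nearly always had more CpG pairs than the other. Outermost starts over 300 bp apart, with a matched promoter each and a Jmjd2c peak over a single one of them, were available in 36 genes. The covered start had more CpG pairs in 33 of them (91.7%, 77.5 to 98.2), with medians of 21 pairs at the covered and 7 at the uncovered start. The exceptions were Ppt2, the lysosomal transcription factor gene Tfeb and the lysosomal protease gene Ctsa. The same comparison for Jmjd2a gave 45 of 66 genes (68.2%, 55.6 to 79.1), with 20 lower and 1 equal and medians of 23.5 and 16. For both proteins, most of these genes had starts at most 2000 bp apart. Their windows overlap, so the uncovered start can be in the table through the peak over the covered one. This comparison was set up after the coverage of the starts was known, and it is given without a test.

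Pomgnt1 and Gramd4, named here after their values were seen, had some of the widest differences in this set. At Pomgnt1, a gene for an enzyme of protein O-mannosylation, the 5′-most start had 51 CpG pairs and lay under peaks of 325 bp (Jmjd2a) and 1356 bp (Jmjd2c). The 3′-most start, 913 bp further on, had 3 CpG pairs, and the peaks ended 655 and 249 bp before it. At Gramd4 the order was turned round, with 6 CpG pairs at the 5′-most start and 43 at the 3′-most, 1032 bp further on, which lay under peaks of 879 and 1561 bp. At Cdkn2c the covered start had 33 pairs and the other 8, in the full 300 bases. In Pomgnt1 and Gramd4 both proteins lay over the start with more CpG pairs, which was the 5′-most in the first gene and the 3′-most in the second. For Jmjd2a this did not hold in every gene with a wide difference. It covered neither outermost start of Adal (40 and 3 pairs), and in Ate1 (34 and 5 pairs) only the start with fewer. Beyond 2000 bp the set is small. The start with Jmjd2c had more pairs in 4 of 4 genes, with medians of 15 and 10 pairs, and the start with Jmjd2a in 5 of 7. In Ick the start with Jmjd2c had 17 pairs and the other 16. The exceptions for Jmjd2a were Osbpl9 (17 pairs at the covered start, 26 at the other) and Ick (16 and 17). Over all matched starts of the genes with distant starts the order for Jmjd2a was the other way round, with a median of 19 CpG pairs under its peaks (n = 30) and 22.5 outside them (n = 22).

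**Figure D5:**
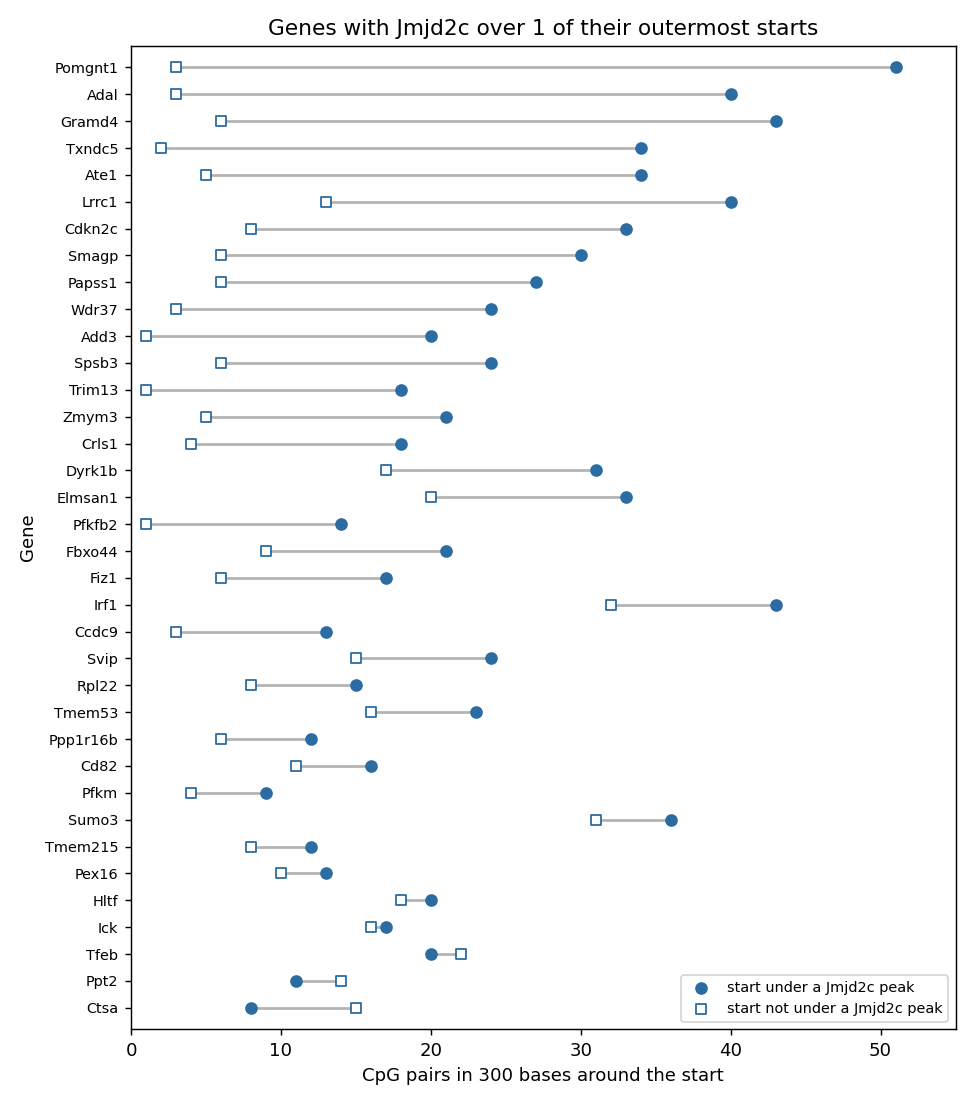
CpG pairs in the 300 bases around the outermost starts (x axis) of the 36 genes (y axis, ordered by the difference) with a Jmjd2c peak over a single one of these starts. Filled circles are the starts under the peak and open squares those outside it, and the circle lies to the right of the square in 33 genes.

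Short motifs were counted on both strands of the same promoters, as a description of letters and not of binding. GGGCGG, the core of the GC box, was present in 67.3% of promoters of genes with several starts, against 35.6% of all promoters. CCGGAA, the core of ETS sites, was present in 29.1% against 14.9%, CCAAT in 37.8% against 37.4%, the NRF-type motif GCATGCGC in 5.93% against 2.71%, and TATAAA in 5.50% against 13.6%. Genes with 1 start gave 71.3%, 34.6%, 40.4%, 6.65% and 4.53% in the same order. At starts outside Jmjd2c peaks in genes with several, GGGCGG was present in 47.1% and TATAAA in 17.6% of 68 promoters, against 69.5% and 4.17% of 623 at starts under them. GGGCGG and GCATGCGC hold a CpG pair themselves, as does CCGGAA.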

How the data were processed

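ChIP-seq of mouse L-GMP cells was processed by the authors with Bowtie 0.12.7, SAMtools and bedtools 2.25.0 on mm10, per the submitters' processing notes. The sources used here name no peak caller, threshold, pooling or rule for a co-bound window. The deposited files hold positions and distances in bp, without counts or scores, so depth is unknown. Shallow sequencing would shorten or lose weak peaks.

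Positions count from 0 with open ends in the files and from 1 in the text, and a start is the centre of its window. A start was covered when a peak overlapped its base, and a peak lay in a window with an overlap of at least 1 bp. Strand came from the deposited table. Of 1368 RefSeq accessions at these starts, 1354 matched the RefSeq table. Shares carry exact 95% intervals, and tests are two-sided exact tests at 0.05, checked on simulated data. Python 3.11.15, numpy 2.4.6, pandas 2.3.3, scipy 1.17.1 and matplotlib 3.10.9 were used.

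The members, the gene lists and the tests were chosen with earlier results of these data known. The rule for named genes takes the 6 with the largest distance, the 4 with the most windows (ties by name), list members with distant starts, up to 3 genes for each pattern of a peak in both outermost windows by summed Jmjd2c width, and up to 3 each with Jmjd2a over a single outermost start by peak width. Other genes are named as members of a small class or of a list, or as chosen afterwards. Alternatives were the wider 50% of each peak list, a peak within 200 bp, every window, any start, a distance of 5000 bp, an overlap of 50 bp and leaving out genes that share peaks.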

Additional observations from a re-analysis of the deposited data

How the results depend on the processing

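Of 26 recomputed values, 17 kept their direction and their side of the threshold, or for shares moved little. These include comparisons of the 5′-most with the 3′-most start that passed the threshold neither before nor after. Of the rest, 4 turned direction, 1 no longer passed the threshold and 4 shares moved. Differences are in percentage points. With the wider 50% of peaks, the difference between genes with several starts and with 1 was -3.76 for Jmjd2a (adjusted exact p = 0.518, against -8.25 with all peaks) and turned to 0.246 for Jmjd2c (adjusted exact p = 0.96, against -5.01). The cause was not tested. Any start in place of the 5′-most, an alternative chosen after seeing the data, turned both to 10.4 and 3.21 (adjusted exact p = 9.48e-06 and 0.00298), since by construction more starts give more chances. A peak within 200 bp of the start turned the difference between the 5′-most and the 3′-most start from 8.82 to -5.88 for Jmjd2a (adjusted exact p = 0.688, neither called), and the cause was not tested. The share of genes with 1 peak in several windows moved to 57.1% for Jmjd2a and 64.0% for Jmjd2c with the wider peaks, by construction lower as fewer peaks are used. Among genes with distant starts, the share with 1 peak in both outermost windows moved from 8.82% to 0.0% for each protein at 5000 bp. That distance leaves out the 3 genes concerned. No paired analysis was possible because the peak lists hold no values per library, and for the same reason no library could be left out. Starts close to a peak's edge may change their call with depth, which is unknown.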
